A study of Mus musculus with 9 samples.

Results

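Intraflagellar transport (IFT) and BBSome genes were followed through the first days of mouse airway epithelial culture. The members were the genes of the deposited table whose symbol begins with Ift or Bbs followed by a digit, together with Wdr19, Wdr35, Ttc21b, Traf3ip1, Kif3a, Kif3b, Kifap3, Dync2h1, Arl6, Arl13b, Mkks, Ttc8, Tulp3 and Bbip1. The rule took 37 of 56748 genes, and it used names only. Of these, 36 were among the 17338 genes with enough reads to test. The remaining one, Ift88os, a noncoding gene on the strand opposite Ift88, had at most 5.16 normalized counts in any library and is not considered further. A normalized count is the number of reads of a gene divided by a size factor for the library, and log2 changes are differences of log2(normalized count + 1).

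The cells were wild-type primary airway basal stem cells from mouse trachea, the progenitors at the base of the airway lining. All were grown at an air-liquid interface (ALI), where cells on a membrane are fed from below and meet air above. RNA was sequenced on day 1, day 3 and day 5, with 3 libraries a day, and the submitters link these days to proliferation, stratification and luminal specification in that order. The labels give no strain, sex or age of the animals, and nothing shows that the replicates are separate cultures or animals. The p-values therefore measure only the spread between these libraries, which may be technical.

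A cilium is built on a centriole and has no ribosomes of its own, so its proteins are carried in and out along the axoneme by IFT. Kinesin-2 moves trains of the IFT-B complex towards the tip, and dynein-2 with the IFT-A complex brings them back. The BBSome is a coat-like complex that rides on these trains and removes membrane proteins from the cilium. The same machinery serves the single primary cilium of basal cells and the many motile cilia of multiciliated cells, which appear as the airway epithelium differentiates.

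Many cilium genes are known targets of RFX transcription factors, which bind a sequence called the X-box, and the promoters of the members were searched for its half-site letters. RefSeq promoters (GRCm38.p6, 250 bases before to 50 after the start) were found for 33 members by symbol, and none for Ift122, Ift80, Ift81 and Ift88os. The letters GTTGCC, read on both strands, stood in the promoters of 13 of the 33 members (39.4%), against 14.1% of all 27025 genes with a promoter. Counted by promoter, 13 of 34 members' promoters held them, against 12.5% of all 32851 promoters and 12.9% of those of tested genes. The longer letters GTTNCCAT, which include GTTGCC where N is G, stood in the promoters of 0 of the 33 members. The share was 5.12% of all 27025 genes with a promoter, and 4.46% of all promoters, so few matches would be expected among 33 genes. Each match is a description of letters in a window. The following windows are those of the 10 members with a match whose values are given library by library, printed 5′ to 3′ on the strand of the gene, with GTTGCC or its reverse complement in capitals.
Ift88, chr14:57424080-57424109, plus strand: ggagtcgcgcctGGCAACggctgggcgtcc
Ift172, chr5:31291097-31291126, minus strand: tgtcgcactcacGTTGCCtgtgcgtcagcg
Ift140, chr17:25015950-25016009, plus strand: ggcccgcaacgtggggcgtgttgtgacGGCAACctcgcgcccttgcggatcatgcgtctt
Ift27, chr15:78174082-78174141, minus strand: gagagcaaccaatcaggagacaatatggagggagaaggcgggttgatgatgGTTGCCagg
Wdr35, chr12:8974021-8974050, plus strand: gatgcgactgggcggcggtgGTTGCCaggc
Dync2h1, chr9:7177009-7177038, minus strand: catagcgacggagcttGGCAACtgctgagt
Kif3a, chr11:53567244-53567303, plus strand: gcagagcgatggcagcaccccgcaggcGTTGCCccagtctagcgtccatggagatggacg
Bbs1, chr19:4906609-4906638, minus strand: atggctgagctgGTTGCCaaggcgacgcct
Bbs7, chr3:36613478-36613537, minus strand: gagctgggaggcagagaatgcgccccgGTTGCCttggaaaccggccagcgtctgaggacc
Arl13b, chr16:62847189-62847248, minus strand: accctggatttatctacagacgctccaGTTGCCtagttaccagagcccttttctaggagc

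In Ift172 the match began at base 1 of the annotated transcript and in Bbs1 at base 2, while that of Arl13b began 181 bases before the start. From day 1 to day 3, 5 of the 13 members with the letters rose and 5 fell (median log2 change 0.10), and of the 20 whose promoters lack them 9 rose and 4 fell (median 0.16). From day 3 to day 5 the counts were 11 and 1 with the letters (median 1.32) and 13 and 2 without (median 0.81). Between day 1 and day 5, 9 of 13 and 17 of 20 rose, with medians of 1.11 and 1.13. Of all tested genes, 36.1% rose and 37.0% fell from day 1 to day 3, and 34.8% rose and 32.4% fell from day 3 to day 5. From day 1 to day 5, 36.7% rose. A difference between members with and without the letters was not tested.

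The libraries held 16.4 to 35.1 M reads, with most reads on day 1 (30.8 ± 4.29 M, SD, n = 3) and fewest on day 5 (17.6 ± 1.51 M). Basal cell markers were present on every day, with 205380 to 423968 summed normalized counts over 6 genes. The sum hides opposite changes. From day 1 to day 5 the log2 changes were −1.48 for Krt5, −1.725 for Krt14, −3.13 for Itga6 and −0.44 for Trp63. Ngfr rose by 2.47 and Krt15 by 1.63, and Krt15 alone had means of 62675, 302633 and 195601 in day order. Y-linked transcripts summed to 3137, 324 and 461 normalized counts in day order and Xist to 1825, 5998 and 7373, so the day and the source of the cells cannot be told apart. Transcript length also moved with the day: over 17046 tested genes the log2 change from day 1 to day 3 fell with the length of the longest annotated transcript (Spearman's rho −0.30 across genes), and the change from day 3 to day 5 rose with it (0.28). A second fit, from which the trend of the values with transcript length and GC content was taken out (the length-adjusted fit), is therefore given where it alters a member's call.

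As a group, the members' main rise came between day 3 and day 5. From day 1 to day 3, 16 of the 36 members rose, 9 fell and 11 passed no threshold (limma, adjusted p below 0.05), where 36.1% of all tested genes rose and 37.0% fell. In bulk samples fewer cells of a type and less RNA per cell cannot be told apart. The median log2 change was 0.17, against 0.0034 over all tested genes. From day 3 to day 5, 27 rose and 3 fell, where 34.8% of all tested genes rose and 32.4% fell, and the median change was 1.06. From day 1 to day 5, 29 rose and 2 fell (36.7% and 37.7% of all tested genes), with a median of 1.13.

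In the length-adjusted fit, 23 members rose and 8 fell from day 1 to day 3, and 27 rose and 2 fell from day 3 to day 5. These were not all the same members: over the second step Ift140 lost its rise, Ift43 turned from a fall to a rise, Ift27 lost its fall and Kif3a gained one. The members' medians were then 0.44 for the first step, 0.93 for the second and 1.29 from day 1 to day 5. Over 17046 tested genes the medians of this fit were −0.0049, 0.060 and 0.016. The shares of all tested genes called in this fit are not given here, so the members' counts in it have no such comparison. Across the 3 days, 35 of 36 members differed in the F test, as did 91.4% of all tested genes. The second step differed from the first in 27 of 36 members and in 70.7% of all tested genes.

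**Figure D1:**
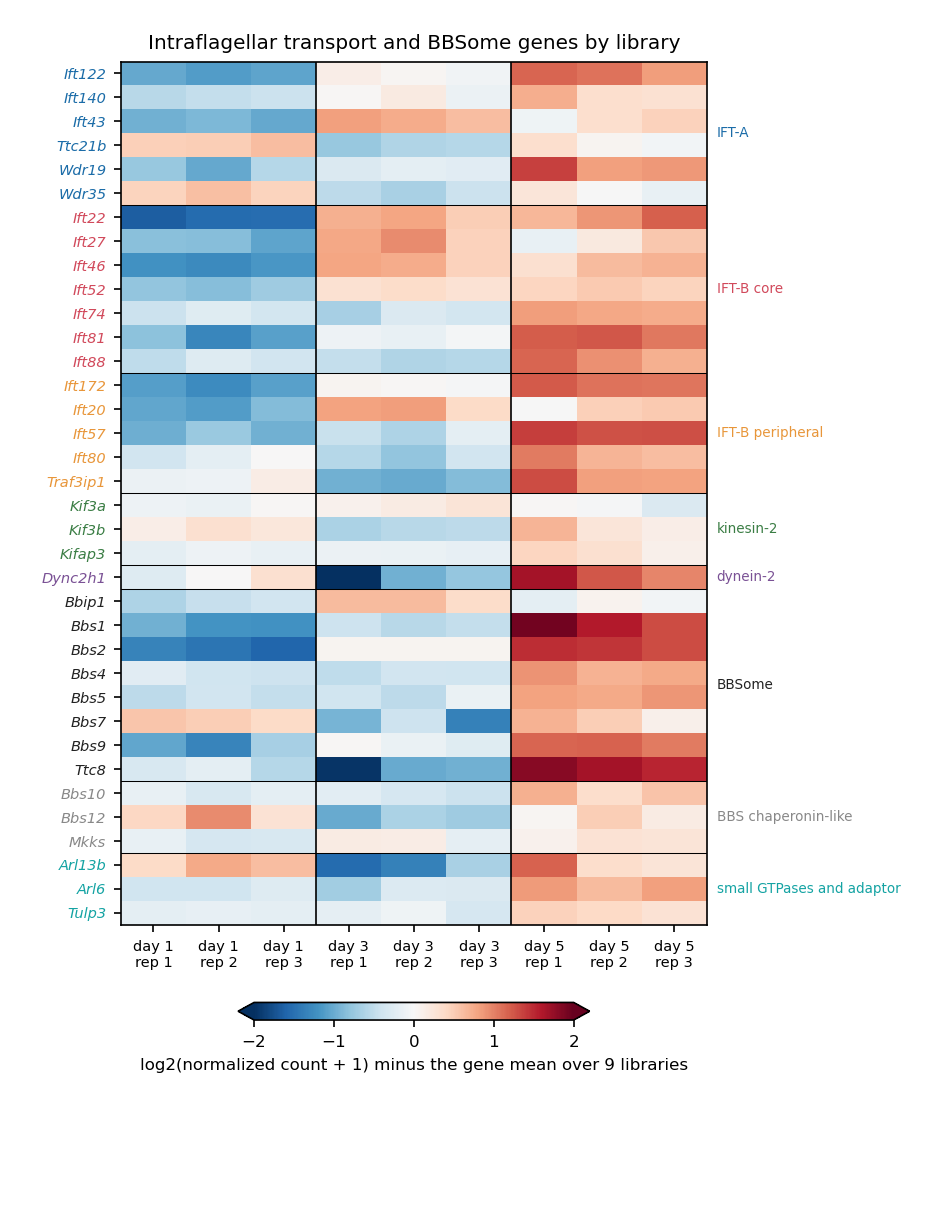
Rows are the 36 tested members, grouped and coloured by complex, and columns are the 9 libraries; colour gives log2(normalized count + 1) minus the mean of the gene over all libraries. Most rows are highest on day 5, while Ift43, Ift27, Ift46, Ift20, Kif3a and Bbip1 are highest on day 3 and Ttc21b, Wdr35, Bbs7 and Bbs12 on day 1.

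Members of one machine did not move in step. Of the 36, 26 had their highest mean on day 5, 6 on day 3 and 4 on day 1. The shares of all tested genes were 32.4% for day 5, 29.2% for day 3 and 38.4% for day 1. Calls over both steps put 9 members in each of 3 patterns: a fall then a rise, no call then a rise, and a rise followed by another rise. These patterns held 16.0%, 9.98% and 8.84% of all tested genes. Another 4 members, Ift20, Ift22, Ift46 and Ift52, rose by day 3 with no call afterwards, 3 rose and then fell, and Kif3a and Mkks passed neither threshold. The 2 steps share the day 3 libraries. These patterns are calls of the fit without length adjustment, and some depend on it. In the length-adjusted fit Ift80, Ift88, Kifap3, Bbs4 and Bbs5 moved from no call then a rise to a rise in both steps. Ift43 rose in both steps there, Ift140 lost its second rise and Ift27 its fall. Dync2h1 lost its first fall, Kif3a was called in both steps and Mkks in the first.

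**Figure D2:**
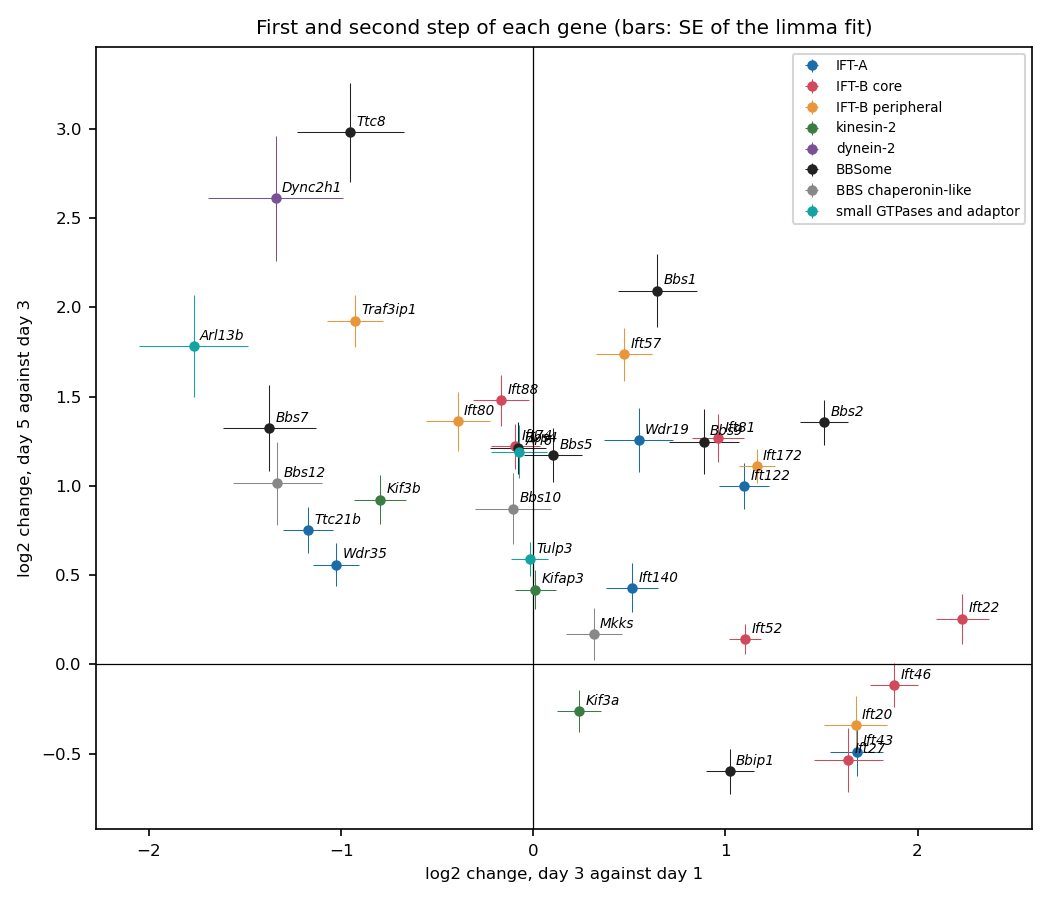
Each point is a member, placed by its log2 change from day 1 to day 3 (horizontal axis) and from day 3 to day 5 (vertical axis), with bars of 1 SE from the limma fit and colour for the complex. Ttc8, Dync2h1 and Arl13b lie at upper left, Bbs2 and Ift172 at upper right, and Ift22, Ift46, Ift20, Ift43 and Ift27 at lower right; the axes share the day 3 libraries.

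IFT-B, the complex of the outward trains, rose from day 1 to day 5 in all 7 tested core members and all 5 peripheral members. Summed normalized counts of the core members went from 2036 ± 20.6 on day 1 to 5175 ± 401 on day 3 and 6245 ± 384 on day 5 (SD, n = 3). Those of the peripheral members went from 1527 ± 121 to 2540.2 ± 177 and 4359 ± 179. The core reached most of its level by day 3, with 5 of 7 members called as rising over the first step, and 3 of 7 over the second.

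Ift22 (ENSMUSG00000007987), a small GTPase-like subunit of the core, had 167, 181 and 183 normalized counts on day 1, 862, 910.4 and 744 on day 3, and 840.3, 981 and 1207 on day 5. Every later library lay far above day 1, and days 3 and 5 overlapped. The first step was 2.23 ± 0.14 on the log2 scale (SE, adjusted p = 7.11e-07), the largest first-step rise of any member, and the second was 0.26 (adjusted p = 0.129). In the length-adjusted fit the first step was 1.98, below the 2.03 of Ift46. Without day 5 replicate 1 the second step was called as a rise of 0.38.

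Ift46 (ENSMUSG00000002031), which in the alga Chlamydomonas is needed to carry outer dynein arms, had 444, 422 and 459 normalized counts on day 1 and 1769.9, 1712 and 1416 on day 3. On day 5 it had 1278, 1592 and 1660.2, overlapping day 3, with replicate 1 below every day 3 library. Its log2 change was 1.88 ± 0.12 over the first step (adjusted p = 8.68e-07) and −0.12 over the second (adjusted p = 0.426). Ift52, a scaffold of the core, moved alike, at 524 ± 25.2, 1127 ± 32.6 and 1242 ± 41.6 normalized counts.

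Ift27 (ENSMUSG00000016637), a small GTPase that links IFT-B to BBSome exit, had 267, 266 and 229.8 normalized counts on day 1, 817, 918 and 662 on day 3, and 430.1, 549 and 693 on day 5. All later libraries stood above day 1, and days 3 and 5 overlapped. The rise of 1.64 ± 0.18 (adjusted p = 1.58e-05) was followed by a change of −0.53 (adjusted p = 0.0224). That call was lost in the length-adjusted fit (−0.12, adjusted p = 0.419) and without day 3 replicate 1 or 2 or day 5 replicate 1 or 2 (−0.51, −0.43, −0.36 and −0.54).

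Ift88 (ENSMUSG00000040040), the core subunit whose loss removes cilia in mice, behaved otherwise. It had 178, 211 and 195 normalized counts on day 1, 181, 167 and 171 on day 3, and 571, 476 and 417 on day 5. Days 1 and 3 overlapped and all day 5 libraries lay above both. The second step was 1.48 ± 0.14 (adjusted p = 1.14e-05). The first was −0.17 (adjusted p = 0.314), but 0.33 (adjusted p = 0.0266) in the length-adjusted fit.

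Ift74 and Ift81 form a coiled-coil pair that binds tubulin. Ift81 rose in both steps, from 187 ± 31.5 to 363 ± 14.3 and 876 ± 60.6 normalized counts. Ift74 had 257 ± 16.8 on day 1 and 242 ± 31.8 on day 3, then rose to 562 ± 19.4. The difference between the partners was not tested.

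Among peripheral subunits, Ift172 (ENSMUSG00000038564), a large membrane-binding subunit, had 280.1, 252 and 283 normalized counts on day 1, 625, 613 and 590.1 on day 3, and 1411, 1284 and 1264 on day 5. The 3 days did not overlap, and the steps were almost equal, at 1.16 ± 0.10 (adjusted p = 2.68e-06) and 1.11 ± 0.10 (adjusted p = 4.98e-06). Ift57 also rose in both steps, from 114 ± 11.1 to 159.5 ± 23.5 and 530.5 ± 22.2 normalized counts. Its first step of 0.47 (adjusted p = 0.0142) was not called under quantile normalization (0.36) or without day 3 replicate 3 (0.36). In the reference annotation 7.86% of its exonic bases lie under a gene on the other strand.

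Ift20 (ENSMUSG00000001105), the subunit that also sits at the Golgi, had 400.1, 379 and 451 normalized counts on day 1 and 1431, 1470.1 and 1074 on day 3. Day 5 gave 821, 1139.8 and 1184, above day 1 and overlapping day 3. Its first step was 1.68 ± 0.16 (adjusted p = 7.45e-06). The second was −0.34 (adjusted p = 0.0877), and without day 3 replicate 3 it was called as lower, at −0.49.

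Traf3ip1, which encodes the tubulin-binding subunit IFT54, fell from 462 ± 48.8 to 242 ± 11.8 normalized counts and then rose to 932 ± 189, past its day 1 level. Ift80 had 269 ± 36.5, 205 ± 29.2 and 528 ± 86.2. Its first step was −0.39 (adjusted p = 0.052), called as a fall without day 1 replicate 1, day 3 replicate 3 or day 5 replicate 1 (−0.49, −0.49 and −0.39), and in the length-adjusted fit it was a called rise of 0.61 (adjusted p = 0.00064).

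**Figure D3:**
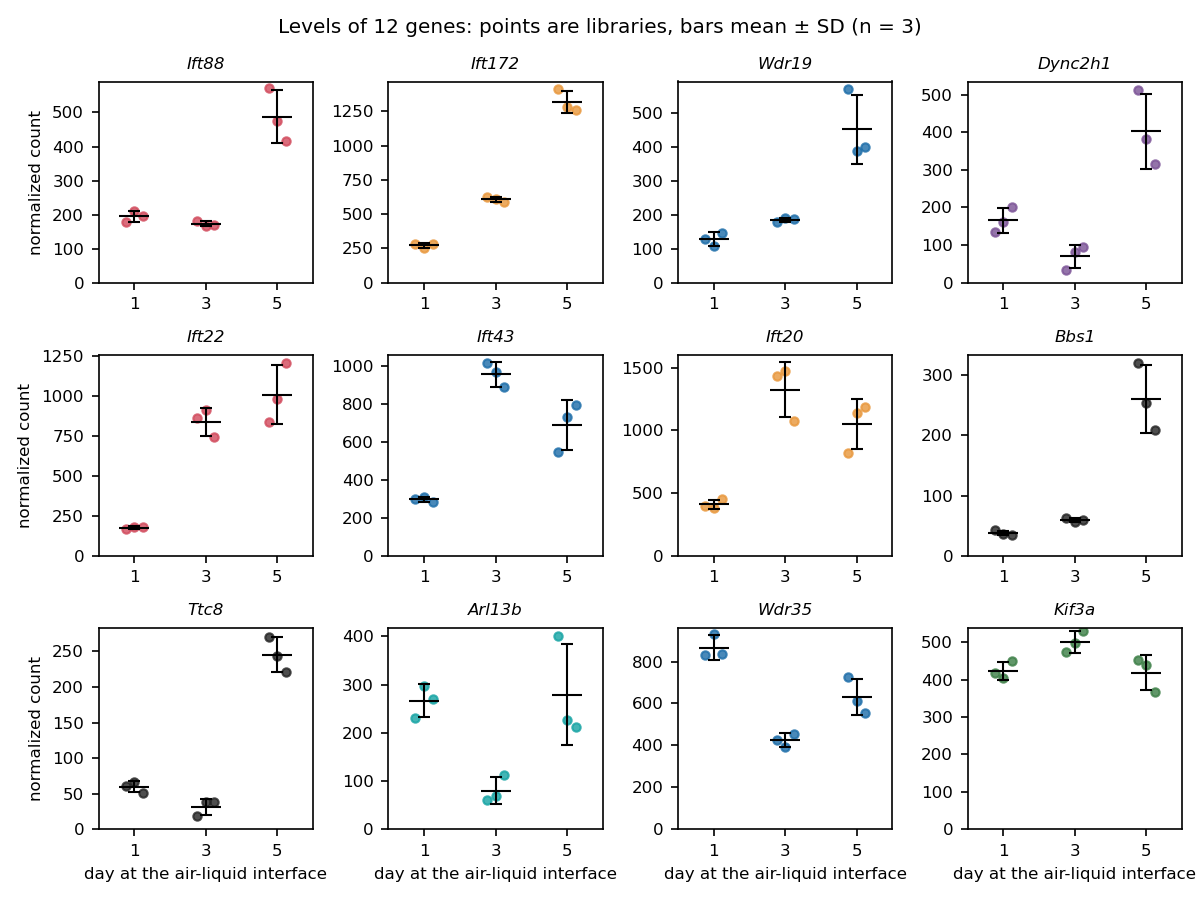
Normalized counts (vertical axes, each from 0) on days 1, 3 and 5 are shown for 12 members; points are libraries and bars the mean ± SD of 3. Ift22, Ift43 and Ift20 are already high on day 3, Ift88, Wdr19, Bbs1 and Ttc8 are high on day 5, Dync2h1 and Arl13b dip on day 3, and Kif3a stays between 366 and 529.9.

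IFT-A, the complex of the return trains and of receptor entry, split within itself. From day 1 to day 5, 4 of its 6 members rose and 2 fell. Wdr19 (ENSMUSG00000037890), the core subunit IFT144, had 129, 107 and 147 normalized counts on day 1, 179.9, 191 and 187 on day 3, and 569.8, 387 and 401 on day 5. No library of one day overlapped another day, and replicate 1 was the highest on day 5. The second step was 1.26 ± 0.18 (adjusted p = 0.000155). The first, 0.55 (adjusted p = 0.0176), was not called without day 1 replicate 2 (0.43) or day 3 replicate 2 (0.53), and it was 1.24 in the length-adjusted fit.

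Ift140 (ENSMUSG00000024169), another core subunit, rose more evenly. It had 298, 313 and 326 normalized counts on day 1, 443, 497 and 404 on day 3, and 723, 555 and 541 on day 5, with no overlap. Its steps were 0.51 ± 0.14 (adjusted p = 0.00565) and 0.43 ± 0.14 (adjusted p = 0.017). The second step was lost in the length-adjusted fit (0.10, adjusted p = 0.424) and without day 3 replicate 3 (0.36). Ift122, the third core subunit, rose from 128 ± 4.27 to 276 ± 19.1 and 554 ± 62.7 normalized counts.

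Ift43 (ENSMUSG00000007867), the smallest IFT-A subunit, had 298, 309.7 and 285 normalized counts on day 1, 1019, 969 and 889 on day 3, and 546, 731 and 796 on day 5. Day 3 stood above both other days without overlap. The steps were 1.68 ± 0.14 (adjusted p = 2.74e-06) and −0.49 ± 0.14 (adjusted p = 0.00986). Ift43 has the shortest transcript of the members, 838 bases, and in the length-adjusted fit the second step was 0.36 (adjusted p = 0.00766), the opposite direction.

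The 2 members lower on day 5 than on day 1 were both IFT-A. Wdr35 (ENSMUSG00000066643), the peripheral subunit IFT121, had 833, 933 and 834 normalized counts on day 1, 427, 392 and 456 on day 3, and 724, 609 and 555 on day 5. Ttc21b (ENSMUSG00000034848), the peripheral subunit IFT139, had 502, 502 and 553, then 212, 236 and 242, then 452, 373 and 346. In both genes day 3 was lowest and day 5 lay between the other days, without overlap.

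From day 1 to day 5 Wdr35 changed by −0.47 ± 0.12 (adjusted p = 0.00466) and Ttc21b by −0.42 ± 0.13 (adjusted p = 0.0125). In the length-adjusted fit these were −0.22 (adjusted p = 0.0523) and 0.11 (adjusted p = 0.302). The call for Ttc21b was also lost without day 1 replicate 3 (−0.37). Their falls from day 1 to day 3, of −1.03 and −1.17, were −0.62 and −0.40 in the length-adjusted fit and kept their calls.

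The motors differed from each other. Dync2h1 (ENSMUSG00000047193), the heavy chain of dynein-2, had 134, 162 and 200.7 normalized counts on day 1, 33.7, 81.7 and 93.7 on day 3, and 511, 382 and 315 on day 5. The days did not overlap, and day 3 replicate 1 was the lowest library. The steps were −1.34 ± 0.35 (adjusted p = 0.00528) and 2.61 ± 0.35 (adjusted p = 0.000102). Its transcript is the longest among the members at 14264 bases, and in the length-adjusted fit the first step was −0.09 (adjusted p = 0.805) and the second 2.21.

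Kinesin-2 joins the motor chains Kif3a and Kif3b with the adaptor Kifap3. Kif3a (ENSMUSG00000018395) had 417, 404 and 451 normalized counts on day 1, 473, 498 and 529.9 on day 3, and 452, 439 and 366 on day 5. Day 3 lay above the other days, which overlapped each other, and Kif3a was the one tested member with no call across the days (F test, adjusted p = 0.0915). Its steps of 0.24 (adjusted p = 0.0846) and −0.26 (adjusted p = 0.0665) were called under quantile normalization (0.29 and −0.34) and in the length-adjusted fit (0.27 and −0.37).

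Kif3b fell from 881 ± 56.2 to 506 ± 20.6 normalized counts and rose to 972 ± 201.4, with log2 changes of −0.80 and 0.92 (adjusted p = 0.000326 and 0.000184). In the length-adjusted fit the first step was −0.27. From day 1 to day 5 the change was 0.13 (adjusted p = 0.417), and it was called in the length-adjusted fit (0.44, adjusted p = 0.0018) and under quantile normalization (0.35). Kifap3 stood at 449 ± 15.8 and 453 ± 9.65 before it rose to 608 ± 66.9. Its first step of 0.01 was a called rise of 0.37 (adjusted p = 0.0029) in the length-adjusted fit.

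Of 8 BBSome subunits, 4 rose and 2 fell over the first step, 7 rose and 1 fell over the second, and 7 were higher on day 5 than on day 1. Their summed normalized counts went from 1019 ± 3.98 to 1431 ± 76.1 and 2641 ± 163 (SD, n = 3). Bbs1 (ENSMUSG00000006464), the subunit that contacts Arl6, had 42, 35.7 and 35.2 normalized counts on day 1, 62.5, 56.2 and 59.2 on day 3, and 319, 253 and 208 on day 5. The days did not overlap, and the larger step was the second, at 2.09 ± 0.20 (adjusted p = 1.16e-05) against 0.65 (adjusted p = 0.0151). In the length-adjusted fit the first step was 1.03.

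Bbs2 (ENSMUSG00000031755), a subunit of the head of the complex, had 89.5, 82.2 and 75.2 normalized counts on day 1, 236, 237 and 236 on day 3, and 638, 617 and 567 on day 5. Its log2 change from day 1 to day 5, 2.87 ± 0.13 (adjusted p = 1.98e-08), was the largest of the members, ahead of Bbs1 at 2.74 ± 0.20. In the length-adjusted fit the order was the other way, with 2.63 for Bbs2 and 2.89 for Bbs1. Bbs9 rose in both steps too, from 83.3 ± 19.6 to 153 ± 14.2 and 363 ± 20.4 normalized counts.

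Ttc8 (ENSMUSG00000021013), the subunit BBS8, had 61, 66.4 and 50.9 normalized counts on day 1, 18.7, 37.5 and 38.5 on day 3, and 271, 244 and 222 on day 5. Day 3 was lowest and day 5 highest without overlap. Its second step of 2.98 ± 0.28 (adjusted p = 8.51e-06) was the largest of any member, after a first step of −0.95 (adjusted p = 0.0097).

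Bbs7 (ENSMUSG00000037325), which pairs with Bbs2 in the head, fell and returned. It had 224, 217 and 200.1 normalized counts on day 1, 79.9, 115 and 59.2 on day 3, and 248, 216 and 164 on day 5. Days 1 and 5 overlapped, and their difference was −0.05 on the log2 scale (adjusted p = 0.854). The steps were −1.37 ± 0.24 (adjusted p = 0.000425) and 1.32 ± 0.24 (adjusted p = 0.000791).

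Bbs4 (ENSMUSG00000025235), one of the last subunits to join the complex, had 126, 112 and 111 normalized counts on day 1, 104, 114 and 112 on day 3, and 278, 240.1 and 251 on day 5. Days 1 and 3 overlapped, and the second step was 1.21 ± 0.15 (adjusted p = 4.7e-05). The first was −0.08 (adjusted p = 0.637), and 0.34 (adjusted p = 0.0487) in the length-adjusted fit. Bbs5 had 117 ± 5.64 and 126 ± 18.0 normalized counts before it rose to 284 ± 13.4, and its first step of 0.10 was a called rise of 0.39 (adjusted p = 0.0305) in the length-adjusted fit.

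Bbip1 (ENSMUSG00000084957), the smallest subunit, was highest on day 3. It had 282, 315 and 332 normalized counts on day 1, 671, 667 and 555 on day 3, and 378, 453 and 416 on day 5, and the days did not overlap. It rose by 1.02 ± 0.12 (adjusted p = 3.15e-05) and then changed by −0.60 ± 0.12 (adjusted p = 0.0017), which was −0.68 in the length-adjusted fit. In the reference annotation 2.20% of its exonic bases lie under Shoc2 on the other strand, and the sources used here do not say whether counting used strand.

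Bbs10, Bbs12 and Mkks encode chaperonin-like proteins that help assemble the BBSome. Bbs10 had 52.4 ± 3.08 and 48.7 ± 3.56 normalized counts on the first 2 days and rose to 90.3 ± 11.2, a second step of 0.87 (adjusted p = 0.00281). Under quantile normalization that step was 0.45 (adjusted p = 0.0625). Bbs12 fell from 125 ± 32.2 to 48.4 ± 6.40 and rose to 99.1 ± 16.3, with steps of −1.33 (adjusted p = 0.000387) and 1.02 (adjusted p = 0.00303). Mkks had 173 ± 12.6, 217 ± 27.8 and 242 ± 18.0, a rise of 0.48 from day 1 to day 5 (adjusted p = 0.0116) that was not called under quantile normalization (0.25, adjusted p = 0.139). Its first step of 0.31 (adjusted p = 0.0736) was called in the length-adjusted fit (0.51, adjusted p = 0.0082) and without day 3 replicate 3 (0.43). Mkks shares 29.3% of its exonic bases with other annotated genes on its own strand, so its counts are uncertain.

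The small GTPases and the adaptor Tulp3 recruit cargo to the membrane of the cilium. Arl13b (ENSMUSG00000022911), a GTPase of the ciliary membrane mutated in Joubert syndrome, had 229.9, 298 and 271 normalized counts on day 1, 59.95, 68.3 and 112 on day 3, and 400.3, 226 and 212 on day 5. Day 3 lay below both other days, and days 1 and 5 overlapped, with replicate 1 apart on day 5. The change of −1.77 ± 0.28 (adjusted p = 0.000223) was the largest fall of the members, and the rise that followed was 1.78 ± 0.28 (adjusted p = 0.000316).

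Arl6 (ENSMUSG00000022722), the GTPase BBS3 that recruits the BBSome to membranes, had 183, 183 and 202 normalized counts on day 1, 149, 198 and 196 on day 3, and 436, 376 and 425 on day 5. Days 1 and 3 overlapped, and the second step was 1.19 ± 0.15 (adjusted p = 6.06e-05). Tulp3 (ENSMUSG00000001521), which brings receptors to IFT-A, had 712, 733 and 714, then 718, 774 and 645, then 1129, 1078 and 1004. Days 1 and 3 overlapped, and the second step was 0.59 ± 0.10 (adjusted p = 0.000374).

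Levels can be compared between genes only per length. Per kilobase of the longest annotated transcript, normalized counts on day 1 ranged from 6.72 ± 0.682 for Bbs1 to 355 ± 14.8 for Ift43. Ift43 and Ift20 were the highest pair on each day and did not differ beyond their spread, at 1145 ± 78.3 and 1135 ± 187 on day 3 and 825 ± 155 and 898 ± 169 on day 5. Dync2h1 was lowest on day 3 (4.89 ± 2.23) and on day 5 (28.2 ± 6.99), where Bbs10 (29.6 ± 3.67) lay within its spread. One annotated length stands for all transcripts of a gene.

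**Figure D4:**
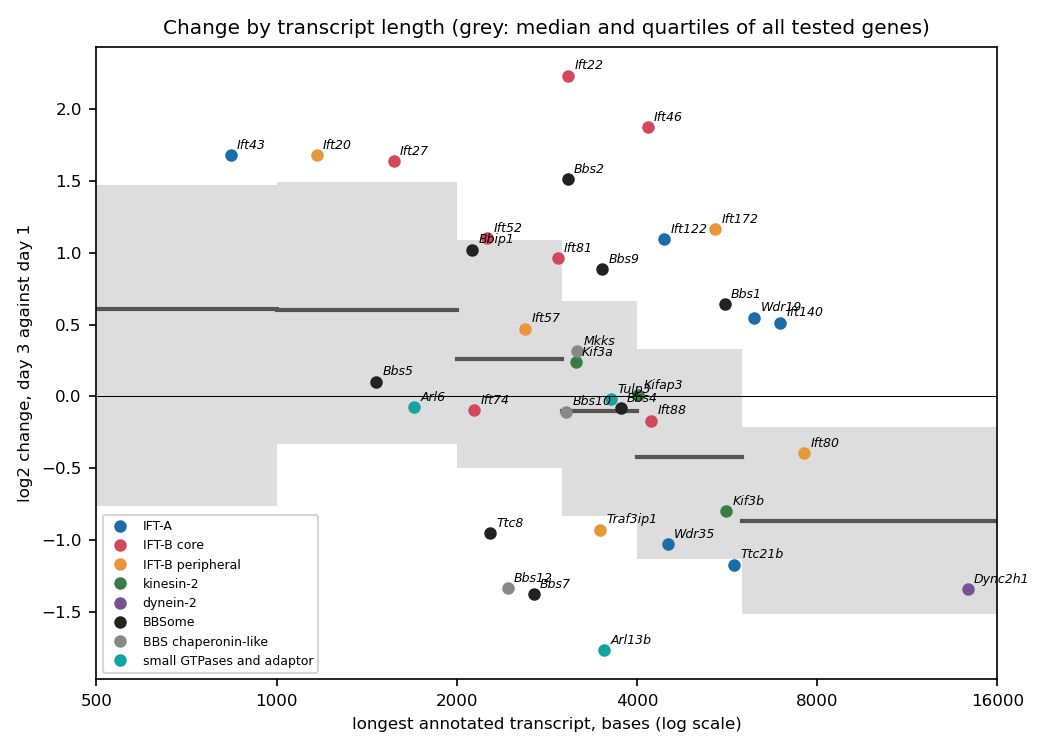
The log2 change from day 1 to day 3 (vertical axis) is plotted against the longest annotated transcript in bases (horizontal log axis) for the 36 members, with the median (dark line) and quartiles (grey) of all tested genes in 6 length classes. The medians of all genes run from 0.61 in the shortest class to −0.87 in the longest; 13 members lie above the upper quartile of their class, 6 below the lower (Arl13b, Bbs7, Bbs12, Traf3ip1, Ttc21b and Ttc8) and 17 between.

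The members were also set beside genes of like length. Among the 10 members of 3000 to 4000 bases the median log2 change from day 3 to day 5 was 1.04, and over all 2879 tested genes of that class it was 0.13. In the 9 members of 4000 to 6000 bases it was 0.92, against 0.30 over 3221 genes. For the first step the same classes gave 0.11 against −0.10, and 0.01 against −0.42. The 8 members of 2000 to 3000 bases gave 0.19 against 0.26 for the first step and 1.24 against 0.06 for the second. Over the 36 members the rho of the change with length was −0.27 for the first step and 0.29 for the second, as a description.

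Other IFT and dynein-2 genes, named outside the rule, gave 10 rises and 3 falls among 18 from day 1 to day 3 and 11 and 5 from day 3 to day 5, and 16 of the 18 were higher on day 5 than on day 1. For this list and those below, 36.1% of all tested genes rose and 37.0% fell over the first step. Over the second step 34.8% rose and 32.4% fell, and from day 1 to day 5 36.7% rose. Dync2li1, the light intermediate chain of dynein-2, rose by 2.23 in the first step (2.20 in the length-adjusted fit). Dynlrb2, a dynein light chain, had 0 normalized counts in every day 1 library and 425 ± 79.2 on day 5. Ttc21a, the close relative of Ttc21b, had 1.56 ± 1.52, 1.88 ± 1.63 and 209 ± 122 normalized counts on days 1, 3 and 5. Dynlrb2 and Ttc21a passed the filter only through day 5, so their rise over the second step was fixed in advance. Ttc30a1, Ttc30a2 and Ttc30b are near-identical copies, and their counts are uncertain.

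Of 21 genes of the transition zone, the gate at the base of the cilium, 12 rose and 6 fell from day 1 to day 3, and 16 rose from day 3 to day 5. Cep290, a linker between membrane and microtubules at this gate, changed by −2.69 in the first step and by −1.40 from day 1 to day 5, which were −1.56 and −0.57 in the length-adjusted fit. Tmem107 rose by 2.19 in the first step. Genes of ciliary membrane trafficking gave 8 rises and 5 falls among 19, then 11 and 3.

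Among 10 tested genes of Hedgehog signalling, which in vertebrates runs through the primary cilium, 2 rose and 3 fell over the first step and 6 rose and 2 fell over the second. These counts stand beside 36.1% and 37.0% of all tested genes for the first step, and 34.8% and 32.4% for the second. The co-receptor Gas1 rose by 1.996 over the second step (adjusted p = 4e-05) and the co-receptor Cdon by 1.93 (adjusted p = 7.2e-06). The largest called falls over the first step were those of Cdon (−1.61) and Ptch1 (−1.30), which were −0.85 and −0.29 in the length-adjusted fit. From day 1 to day 5 the change of Cdon was 0.32 (adjusted p = 0.124), and 0.78 (adjusted p = 0.0019) in the length-adjusted fit. Of 5 tested RFX factors, 3 fell over the first step and 3 rose over the second. Rfx3, a regulator of ciliary genes, had 165 ± 10.3, 136 ± 9.3 and 294 ± 86.4 normalized counts on days 1, 3 and 5, and its second step was 1.07 (adjusted p = 0.0011). Its first step was −0.28 (adjusted p = 0.24), and a called rise of 0.87 (adjusted p = 0.00057) in the length-adjusted fit.

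Genes of the motile cilium and the multiciliated programme rose mainly between day 3 and day 5. Of 31 genes, 12 rose from day 1 to day 3, where 36.1% of all tested genes rose. All 31 rose from day 3 to day 5, where 34.8% of all tested genes rose. That count cannot be read against the share. On day 3, 10 of the 31 genes were at 0 in every library, and these passed the filter only through day 5. For them, and for others near 0 until day 3, the filter fixed the rise in advance. Their summed normalized counts were 397 ± 26.7, 1159 ± 75.1 and 13908 ± 1106 (SD, n = 3), while those of the 37 members were 10281 ± 262, 14487 ± 738 and 21168 ± 756. The 10 multiciliated cell markers summed to 115 to 136 normalized counts on day 1, 312 to 427 on day 3 and 6996 to 8382 on day 5. Dnah5, Dnai1 and Sntn were at 0 in all libraries of days 1 and 3, Tekt1 was at 0 on day 3, and none of the 10 was at 0 on day 5. The part of multiciliated cells in the members' rise was not tested.

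Genes of cilium disassembly and the cell cycle mostly fell. Of 11 genes, 10 fell and 1 rose from day 1 to day 3, and 7 fell and 1 rose from day 3 to day 5. In the length-adjusted fit the first step of Kif2a was a called rise (0.56, adjusted p = 0.00027). Cdk1 (−0.16) and Nedd9 (−0.45) lost their calls there. Their summed normalized counts were 38789 ± 3306, 17467 ± 824 and 6749 ± 470. Most of the day 1 sum came from cell cycle genes, with means of 12064 for Top2a and 10441 for Mki67, so it does not describe cilium disassembly. Aurka, the kinase that starts cilium disassembly, changed by −2.01 in the second step, and Nedd9, the scaffold that activates it, rose by 3.46. The part of cycling cells in the members' changes was not tested.

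**Figure D5:**
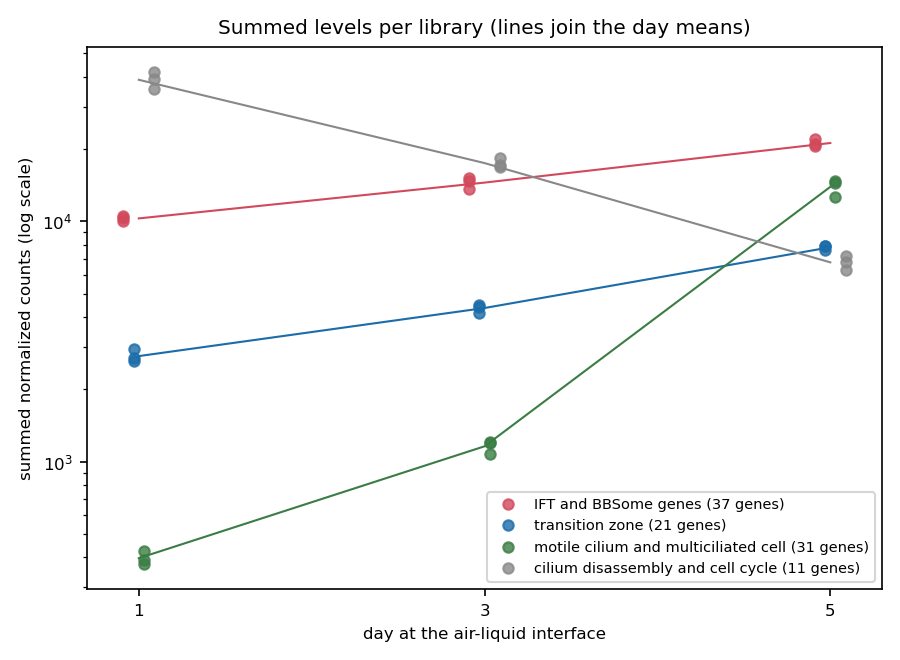
Summed normalized counts (vertical log axis) per library on days 1, 3 and 5 are shown for the members, the transition zone, the motile cilium and multiciliated list, and the cilium disassembly and cell cycle list; lines join the day means. The members start at 10281 and end at 21168, the motile cilium list runs from 397 to 13908, and the cell cycle list falls from 38789 to 6749.

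Luminal and suprabasal markers (3 genes) summed to 32609 to 53127 normalized counts on day 1, 108379 to 121959 on day 3 and 22484 to 33805 on day 5. Fibroblast markers summed to at most 130.5 normalized counts in any library. Nearly all of the day 5 sum was Dcn, at 0 in every library of days 1 and 3 and 112 ± 16.1 on day 5. Secretory markers summed to at most 142 until day 3 and reached 69662 to 119303 on day 5. Neuroendocrine markers (3 genes) summed to at most 10.7 until day 3 and to 516 to 593 on day 5. Leukocyte markers summed to 448 to 676 on day 3 and 63273 to 81454 on day 5. Nearly all of this was Lyz2, at 550.4 ± 120.2 and then 70299 ± 9766. The day 5 means of the other markers were 0.43 for Ptprc, 0.33 for Cd3e, 3.97 for Cd79a and 5.58 for Itgam, with Tyrobp at 0. The sum therefore describes Lyz2 and not the list. The part of these cell types in the members' rise was not tested.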

How the data were processed

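RNA from 9 libraries was sequenced, 3 on each of 3 days. The submitters' processing notes name the aligner HISAT2 2.1.0, the build GRCm39 and, for normalization, DESeq2 1.36.0. How reads were counted, on which annotation and with what strand setting is not given in the sources used here. As read from their values, the authors deposited log2 values of the read count divided by a size factor, with no pseudocount, in which a gene without a read holds an error text (297330 cells, read as 0). Of 57107 lines, 359 repeated a gene and were dropped. All other deposited values were returned to the linear scale and are called normalized counts.

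A gene was tested where 3 or more libraries held at least 10 normalized counts, on log2(normalized count + 1), which understates changes of low genes. The fit used limma 3.58.1 (R 4.3.3), with a mean for each day and a mean-variance trend, two-sided, with Benjamini-Hochberg adjustment over all tested genes at 0.05. The design had assumed log2 values without zeros, and that fit became an alternative. On simulated data the fit for day 3 against day 1 was run over 17338 genes. The simulation changed few genes, gave all genes the same dispersion and held no trend with length. These data differ in each of these, so it cannot tell how reliable the calls given here are. Transcript length, GC content and overlap came from GENCODE M21 on GRCm38 by gene identifier, for 98.3% of tested genes. No gene positions are given, since the builds differ, except those of the RefSeq promoters. The removal of the length and GC trend was changed, after its first values were seen, to keep each library's median.

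The members, lists and tests were chosen with earlier results of these data known. Of the members, 13 were described in full whatever their result, with the 3 largest called rises and falls of each comparison among those reaching a day mean of 100 normalized counts. From the other lists at most 2 genes per direction were named by the size of their change. Rfx3 is an exception, since Rfx5 rose more over the second step (1.52 against 1.07). Ttc30a1, Ttc30a2, Ttc30b, Kif2a, Cdk1, Top2a and Mki67 were named after their values were seen. The same holds for the single basal cell, fibroblast and leukocyte markers and the markers at 0. Alternatives were a pseudocount of 8, quantile normalization, no filter, only the 2 days compared, a replicate block, the trend removed, and each library left out. The depth of 16.4 to 35.1 M reads limits the lowest members, since Bbs1 and Ttc8 had under 100 normalized counts on days 1 and 3.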

Additional observations from a re-analysis of the deposited data

How the results depend on the processing

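The counts of members kept within 1.5 times their main value under the pseudocount of 8, quantile normalization, no filter on low counts, the values as deposited (genes with a 0 left out), and the fit of only the 2 days compared. The number of members lower on day 5 than on day 1 was the exception elsewhere: it was 2, and 0 by limma in the length-adjusted fit without the replicate block (1 at an unadjusted p under 0.05) and 0 with it (0 at an unadjusted p under 0.05), and 1 to 2 when each library was left out. The fit with a replicate block gave 16 rises and 9 falls from day 1 to day 3, 27 and 3 from day 3 to day 5, and 29 and 2 from day 1 to day 5, with 26 members whose second step differed. Libraries with the same number did not deviate together (correlations of −0.31 to 0.14). With 3 libraries a day, deviations from a day mean constrain each other, so these correlations cannot decide whether the numbers pair libraries.

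Over the 22 members given by library, 1090 of 1122 repeats of a change stayed on the same side of the threshold without a called change of sign, 16 lost the call, 9 gained one and 7 changed sign with a call in either fit. Another 16 repeats, counted among the 1090 and spread over 7 members, changed sign with no call in either fit, some of them outside the length-adjusted fit. All 7 called changes of sign came in the length-adjusted fit: Ift88 (0.33) and Bbs4 (0.34) from day 1 to day 3, Ift43 (0.36) from day 3 to day 5, and Ttc21b (0.11) from day 1 to day 5, with the same values for Ift88, Ift43 and Ttc21b under the replicate block. The cause was not tested. Among the other 14 members, quantile normalization also called Ift52 higher over the second step (0.29) and Bbs12 lower from day 1 to day 5 (−0.75), and took the call from Bbs10 from day 1 to day 5 (0.22).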
